A study of Saccharomyces cerevisiae with 12 samples.

Results

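Autophagy is the process by which a cell encloses part of its cytoplasm in a double membrane and delivers it to the vacuole for breakdown, and in budding yeast its core machinery is named after the ATG genes. The genes described here are all those whose annotated S. cerevisiae symbol is ATG followed by a number: 34 genes, each on a single probe set of its own, of 5498 probe sets assigned to a single S. cerevisiae gene and 8968 probe sets tested. RefSeq lists 37 genes with such a symbol, and ATG42, ATG44 and ATG45 were not analysed here. The genes that were once called ATG6 and ATG24 carry the symbols VPS30 and SNX4 and are given with the other autophagy genes.

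RNA of diploid Saccharomyces cerevisiae strain BY4743, came from cultures in rich medium in rotating vessels called HARVs and was hybridized to 12 arrays of the type Affymetrix Yeast Genome 2.0. SMG 5 (3 arrays) and SMG 25 (3 arrays) are cells after 5 and 25 generations of low-shear modeled microgravity (LSMMG), for which the HARV turns about a horizontal axis and the cells stay in suspension. Ctrl (6 arrays) is the same strain and medium in HARVs turned to the position in which gravity is not randomized, with 3 arrays titled as 5 generations (Ctrl 5) and 3 as 25 generations (Ctrl 25). LSMMG is thus a bench model of weightlessness, all groups share the vessel and the rotation, and later generations were reached by diluting earlier cultures. The titles gave the generation of each array, although the growth description names 5 generations for every sample and a display in the paper divides the control arrays differently. Nothing says which arrays share a culture, so p-values measure only the spread between these arrays, which may be technical.

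In the pathway, the Atg1 kinase and its scaffold proteins start autophagosome formation, and a phosphatidylinositol 3-kinase marks the assembly site. Atg9 vesicles bring membrane, and a pair of ubiquitin-like conjugation systems attach Atg8 to a lipid of the growing membrane. Receptors link cargo such as mitochondria, peroxisomes or vacuolar enzymes to Atg8, and after fusion the vacuole degrades the inner membrane and exports the products. The machinery is best known for its role in nitrogen starvation, and a constitutive branch, the cytoplasm-to-vacuole targeting (Cvt) pathway, carries vacuolar hydrolases in growing yeast.

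Each value is a linear ratio. A ratio of 1 is the typical level of that probe set, since the medians of probe sets over the 12 arrays lie between 0.9935 and 1.0105, and every array has a median of 1. Levels can therefore be compared between arrays for each gene, but not between genes, and the strain cannot be checked by the level of its markers. Changes are log2 fold changes with their standard error (SE) from limma, and a gene was called higher or lower at a two-sided adjusted p under 0.05 over all 8968 probe sets tested.

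Replicates 1 and 2 of Ctrl 5 stood apart from the other 4 control arrays. Their log2 ratios correlated at 0.652 with each other and at 0.143 to 0.572 with the other 4, which correlated at 0.823 to 0.931 among themselves, over the probe sets tested. For the ATG genes the median ratio of an array was 0.790 and 0.880 in these arrays, against 0.422 to 0.590 in the other 4 control arrays. In 24 of 34 ATG genes both were above every other control array, which held for 39.0% of the named probe sets. The authors excluded a control array as aberrant, and nothing says which it was or whether it was deposited. The paper shows as many control arrays after that exclusion as are deposited. All 6 deposited control arrays were used here. Results are given with and without replicates 1 and 2 of Ctrl 5 where they rest on them.

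Most ATG genes were higher in LSMMG at both times. At 5 generations 29 of 34 were higher than in Ctrl, 1 was lower and 4 did not pass the test. Over the named probe sets 34.2% were higher and 26.8% lower at that time, and over all probe sets tested 22.5% were higher. At 25 generations 29 were higher, 1 was lower and 4 did not pass, where 33.0% of the named probe sets were higher and 25.4% lower. The same 29 genes were higher at both times, as were 27.5% of the named probe sets. A rise of at least 2-fold was called in 22 ATG genes at 5 generations and in 19 at 25 generations, and in 13.6% and 12.2% of the named probe sets. RNA was taken from whole cultures, so a larger share of cells with active ATG genes and more RNA per cell cannot be told apart.

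The median change of the 34 genes was 1.26 on the log2 scale at 5 generations and 1.08 at 25 generations, beside 0.13 and 0.15 over the named probe sets. The median ratio of the ATG genes was 1.37, 1.34 and 1.30 on the SMG 5 arrays and 1.24, 1.23 and 1.22 on the SMG 25 arrays. In Ctrl it ran from 0.422 to 0.880, so that no control array reached an LSMMG array. All 3 SMG 5 arrays were above every control array in 28 genes, as in 30.6% of the named probe sets, and all 3 SMG 25 arrays in 28 genes, as in 30.5%. The S. pombe probe sets of the same arrays, for which the cells hold no matching RNA apart from cross-hybridization, gave a measure of background. The 95th percentile of their absolute change was 0.33 at 5 generations and 0.36 at 25 generations, and 32 of 34 ATG genes were beyond it at each time. The share of the named probe sets beyond it was not counted, so the 32 genes cannot be set against the rest. In Ctrl 25 against Ctrl 5, where no ATG gene was called, 18 of 34 were beyond the percentile of that comparison. In SMG 25 against SMG 5 it was 15 of 34, so being beyond it does not amount to a call. In either direction, 61.0% of the named probe sets were called at 5 generations and 58.4% at 25 generations.

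**Figure D1:**
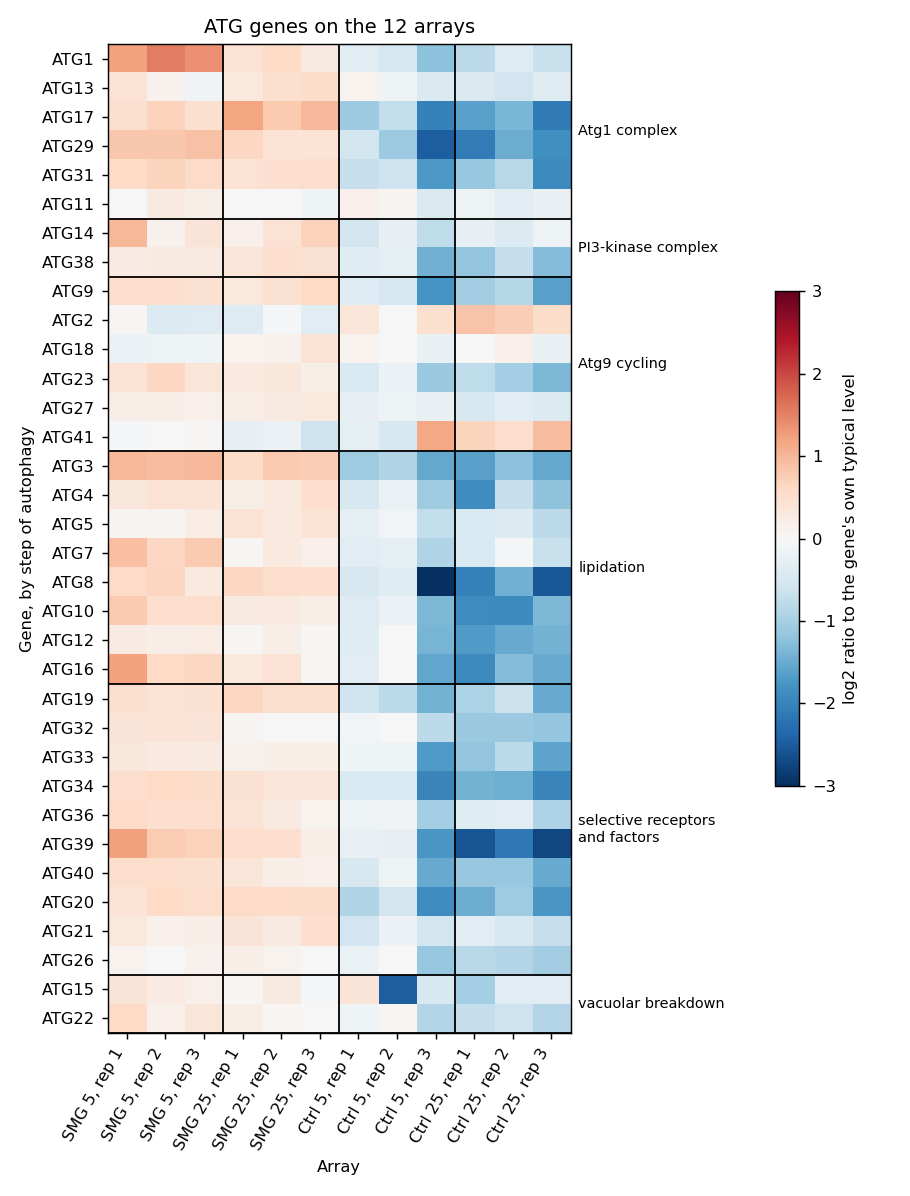
Log2 ratio of each of the 34 ATG genes (rows, grouped by step of autophagy) on each of the 12 arrays (columns: SMG 5, SMG 25, Ctrl 5, Ctrl 25), with red above and blue below the gene's own typical level. Most rows are red on the 6 LSMMG arrays and blue on Ctrl 5 replicate 3 and the Ctrl 25 arrays, with Ctrl 5 replicates 1 and 2 paler, and ATG2 and ATG41 run the other way.

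Of the Atg1 complex, 5 of 6 genes were higher at each time, 4 of them at least 2-fold, with a median change of 1.89 at 5 generations and 1.36 at 25 generations. ATG1 (YGL180W), the kinase that starts the process, had ratios of 2.32, 2.92 and 2.60 in SMG 5 and 1.35, 1.51 and 1.20 in SMG 25, against a lowest of 0.425, a median of 0.669 and a highest of 0.806 in Ctrl. The SMG 5 arrays were highest, the SMG 25 arrays lay between, and the 3 groups did not overlap. ATG1 changed at 5 generations by 2.02 (SE 0.18, adjusted p = 6.2e-06) and at 25 generations by 1.08 (SE 0.18, adjusted p = 0.00053).

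ATG17 (YLR423C), ATG29 (YPL166W) and ATG31 (YDR022C) encode the scaffold that gathers the kinase at the assembly site in starvation. ATG17 had ratios of 1.40, 1.61 and 1.40 in SMG 5 and 2.27, 1.72 and 1.95 in SMG 25, against a lowest of 0.231, a median of 0.354 and a highest of 0.601 in Ctrl. ATG29 had 1.74, 1.75 and 1.85 in SMG 5 and 1.53, 1.32 and 1.34 in SMG 25, against a lowest of 0.181, a median of 0.320 and a highest of 0.684 in Ctrl. In both genes every LSMMG array was far above every control array, with the SMG 25 arrays above the SMG 5 arrays in ATG17 and below them in ATG29. ATG29 rose at 5 generations by 2.41 (SE 0.33, adjusted p = 0.00013) and at 25 generations by 2.06 (SE 0.33, adjusted p = 0.00039). Its partner ATG31, rose by 1.76 and 1.65 (SE 0.26 each), with LSMMG ratios between 1.36 and 1.58 and control ratios of at most 0.649.

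The other members of the complex moved less. ATG13 (YPR185W), the regulatory subunit through which nutrient signals reach the kinase, rose at 5 generations by 0.46 (SE 0.15, adjusted p = 0.030) and at 25 generations by 0.76 (adjusted p = 0.0019). Its call at 5 generations held in 14 of the 23 other settings tried, and its adjusted p reached 0.17 over the 23. The call was lost without Ctrl 5 replicate 3, any of the Ctrl 25 arrays or SMG 5 replicate 1 or 2. It was also lost with quantile normalization, with control arrays of the same generation only and by the Welch t-test described below. ATG11 (YPR049C), the scaffold of selective autophagy, had ratios of 1.0, 1.20 and 1.13 in SMG 5 and 1.01, 1.0 and 0.914 in SMG 25, against a lowest of 0.738, a median of 0.876 and a highest of 1.12 in Ctrl. Its groups overlapped, and its changes of 0.30 (adjusted p = 0.089) and 0.12 (adjusted p = 0.52) did not pass.

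The 2 ATG genes of the phosphatidylinositol 3-kinase complex were both higher at each time. ATG14 (YBR128C), which directs the kinase to the assembly site, had ratios of 2.0, 1.09 and 1.30 in SMG 5 and 1.12, 1.35 and 1.61 in SMG 25, against a lowest of 0.591, a median of 0.796 and a highest of 0.901 in Ctrl. ATG38 (YLR211C), which holds the subunits of the complex together, had 1.18, 1.21 and 1.21 in SMG 5 and 1.28, 1.43 and 1.37 in SMG 25, against a lowest of 0.369, a median of 0.525 and a highest of 0.824 in Ctrl. All LSMMG arrays were above all control arrays in both, with wide replicates in ATG14 and narrow ones in ATG38. ATG14 rose by 0.89 (SE 0.19, adjusted p = 0.0029) and 0.82 (adjusted p = 0.0051), and ATG38 by 1.14 (SE 0.24, adjusted p = 0.0021) and 1.32 (adjusted p = 0.00082), at 5 and 25 generations. The methods' test was run here as a Welch t-test on the log2 of the deposited ratios, adjusted over all probe sets tested. The authors ran theirs on filtered RMA values without the excluded array, so the outcomes can differ. By the test as run here, the call of ATG14 at 5 generations was lost (adjusted p = 0.13), as was that of ATG13.

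The step of Atg9 cycling and lipid supply was mixed: 3 of 6 genes were higher, 1 was lower and 2 did not pass at each time, and the median change was 0.18 at 5 generations and 0.40 at 25 generations. The genes called higher were ATG9, ATG23 and ATG27. ATG9 (YDL149W), the membrane protein of the vesicles, had ratios of 1.45, 1.43 and 1.38 in SMG 5 and 1.24, 1.37 and 1.51 in SMG 25, against a lowest of 0.289, a median of 0.521 and a highest of 0.767 in Ctrl. ATG23 (YLR431C), needed for the transport of Atg9, had 1.35, 1.55 and 1.29 in SMG 5 and 1.22, 1.26 and 1.13 in SMG 25, against a lowest of 0.393, a median of 0.540 and a highest of 0.886 in Ctrl. ATG27 (YJL178C), a membrane protein that travels with Atg9, had 1.14, 1.15 and 1.11 in SMG 5 and 1.14, 1.21 and 1.24 in SMG 25, against a lowest of 0.711, a median of 0.825 and a highest of 0.897 in Ctrl. None of these 3 genes overlapped between LSMMG and Ctrl. ATG9 rose by 1.53 (SE 0.28, adjusted p = 0.00086) and 1.48 (adjusted p = 0.0011), ATG23 by 1.29 (SE 0.21) and 1.08, and ATG27, whose SE was the smallest of the 34 genes, by 0.49 (SE 0.08, adjusted p = 0.00061) and 0.56 (adjusted p = 0.00023).

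ATG2 (YNL242W) was the only ATG gene called lower with all 6 control arrays. Its product passes lipids to the growing membrane and acts with Atg18. ATG2 had ratios of 1.02, 0.748 and 0.769 in SMG 5 and 0.767, 0.965 and 0.784 in SMG 25, against a lowest of 0.990, a median of 1.43 and a highest of 1.82 in Ctrl. The SMG 25 arrays were all below every control array, while SMG 5 replicate 1 overlapped the lowest of them. The change was -0.76 at both times (SE 0.18, adjusted p = 0.0048 at 5 generations and 0.0047 at 25 generations), which is a fall of less than 2-fold.

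ATG18 (YFR021W), which binds the phosphorylated lipid together with Atg2, had ratios of 0.880, 0.899 and 0.911 in SMG 5 and 1.07, 1.09 and 1.34 in SMG 25, against a lowest of 0.858, a median of 1.0 and a highest of 1.11 in Ctrl. The groups overlapped Ctrl at both times, and the changes were -0.13 (adjusted p = 0.38) and 0.25 (adjusted p = 0.090). It was the only ATG gene whose change differed in sign between the times, and SMG 25 against SMG 5 was 0.37 with an adjusted p of 0.19. ATG41 (YPL250C), which binds Atg9, had ratios of 0.983, 1.01 and 1.02 in SMG 5 and 0.841, 0.886 and 0.647 in SMG 25, against a lowest of 0.716, a median of 1.51 and a highest of 2.22 in Ctrl. Replicates 1 and 2 of Ctrl 5, at 0.830 and 0.716, lay within the range of the LSMMG arrays, and the other 4 control arrays, at 1.44 to 2.22, were above all of them. With 6 control arrays ATG41 changed by -0.42 (SE 0.32, adjusted p = 0.34) and -0.77 (adjusted p = 0.074), and with the 4 it was called lower at both times, at -0.81 (SE 0.15, adjusted p = 0.00079) and -1.17 (adjusted p = 5.8e-05).

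All 8 genes of the conjugation systems were higher at each time, 7 of them at least 2-fold at 5 generations and 6 at 25 generations, with median changes of 1.54 and 1.31. ATG3 (YNR007C), the enzyme that transfers Atg8 to its lipid, had ratios of 2.0, 1.90 and 1.97 in SMG 5 and 1.47, 1.72 and 1.68 in SMG 25, against a lowest of 0.322, a median of 0.386 and a highest of 0.535 in Ctrl. ATG7 (YHR171W), the activating enzyme shared by both systems, had 1.87, 1.53 and 1.73 in SMG 5 and 1.03, 1.22 and 1.11 in SMG 25, against a lowest of 0.537, a median of 0.765 and a highest of 0.968 in Ctrl. ATG5 (YPL149W), to which Atg12 is attached, had 1.06, 1.06 and 1.16 in SMG 5 and 1.35, 1.23 and 1.33 in SMG 25, against a lowest of 0.583, a median of 0.740 and a highest of 0.944 in Ctrl. The 3 genes were above every control array on all LSMMG arrays, with ATG7 highest in SMG 5 and ATG5 highest in SMG 25. ATG7 rose by 1.21 (SE 0.16, adjusted p = 0.00010) and 0.60 (adjusted p = 0.010), and ATG5 by 0.59 (SE 0.14, adjusted p = 0.0050) and 0.84 (adjusted p = 0.00051).

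ATG8 (YBL078C), the ubiquitin-like protein at the centre of this step, was chosen for its values on each array after they were seen, because its control arrays spread most. It had ratios of 1.48, 1.56 and 1.23 in SMG 5 and 1.54, 1.45 and 1.42 in SMG 25. In Ctrl it had 0.711, 0.778 and 0.103 at 5 generations and 0.244, 0.371 and 0.171 at 25 generations. All control arrays were below all LSMMG arrays, but those of Ctrl 5 ran from the lowest to the highest of the 6. ATG8 rose by 2.19 (SE 0.54, adjusted p = 0.0062) and 2.25 (adjusted p = 0.0054), and by 2.83 (SE 0.33) and 2.88 without replicates 1 and 2 of Ctrl 5. The remaining genes of the step are ATG4, the protease that trims Atg8, ATG10, which conjugates Atg12, and ATG12 and ATG16, the partners of Atg5. They rose by 1.28 to 1.91 at 5 generations and by 1.15 to 1.42 at 25 generations, and none overlapped with Ctrl on any LSMMG array.

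**Figure D2:**
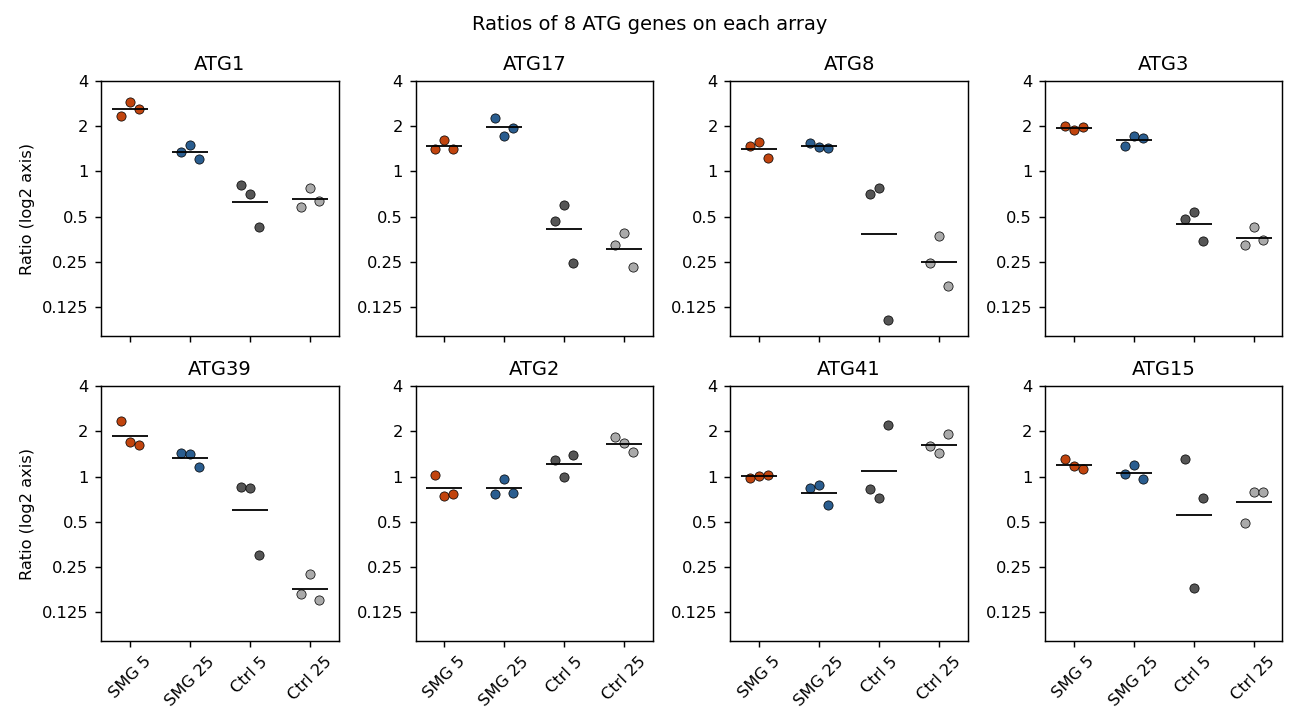
Ratio on each array (points, log2 axis) of 8 ATG genes in SMG 5, SMG 25, Ctrl 5 and Ctrl 25, with the geometric mean of each group of 3 as a bar. ATG1, ATG17, ATG8, ATG3 and ATG39 are above every control array on all LSMMG arrays, the SMG 25 arrays of ATG2 are below every control array, and the controls of ATG41 and ATG15 overlap the LSMMG arrays.

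All 10 genes of the receptors and other factors of selective autophagy were higher at each time, 8 of them at least 2-fold at 5 generations and 6 at 25 generations, with median changes of 1.33 and 1.15. For the Cvt pathway, ATG19 (YOL082W), the receptor for vacuolar enzymes, had ratios of 1.39, 1.33 and 1.36 in SMG 5 and 1.53, 1.40 and 1.41 in SMG 25, against a lowest of 0.348, a median of 0.549 and a highest of 0.659 in Ctrl. ATG20 (YDL113C), a sorting nexin, had 1.32, 1.51 and 1.45 in SMG 5 and 1.5, 1.5 and 1.48 in SMG 25, against a lowest of 0.276, a median of 0.417 and a highest of 0.678 in Ctrl. ATG21 (YPL100W), which binds phosphorylated lipid and helps to place Atg8, had 1.25, 1.11 and 1.15 in SMG 5 and 1.30, 1.21 and 1.41 in SMG 25, against a lowest of 0.619, a median of 0.699 and a highest of 0.889 in Ctrl. No LSMMG array of these genes reached down to a control array, and the SMG 5 and SMG 25 arrays lay close together. ATG20 rose by 1.78 (SE 0.24, adjusted p = 0.00013) and 1.85 (adjusted p = 9.7e-05), and ATG21 by 0.69 (SE 0.11, adjusted p = 0.00039) and 0.85 (adjusted p = 9.2e-05). ATG34, a receptor related to Atg19 that neighbours it in the RefSeq gene order, rose by 1.86 and 1.69 (SE 0.32 each).

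The receptors for organelles were all higher at both times. ATG39 (YLR312C), the receptor for the nuclear envelope, had the largest change of the 34 genes at 5 generations and was chosen for its values after they were seen. It had ratios of 2.35, 1.69 and 1.62 in SMG 5 and 1.43, 1.42 and 1.16 in SMG 25. In Ctrl it had 0.852, 0.840 and 0.299 at 5 generations and 0.166, 0.225 and 0.151 at 25 generations. The LSMMG arrays were all above the controls, and the Ctrl 25 arrays were below every Ctrl 5 array. ATG39 rose at 5 generations by 2.51 (SE 0.53, adjusted p = 0.0024) and at 25 generations by 2.03 (adjusted p = 0.0091), and by 3.20 (SE 0.22) and 2.71 without replicates 1 and 2 of Ctrl 5. ATG40, the receptor for the endoplasmic reticulum, rose by 1.49 and 1.22 (SE 0.26 each), and ATG36, the receptor for peroxisomes, by 1.01 and 0.74 (SE 0.20 each). ATG32, the receptor for mitochondria, rose by 1.10 (SE 0.25, adjusted p = 0.0042) and 0.74 (adjusted p = 0.035), and ATG33, a mitochondrial outer membrane protein of the same process, by 1.23 (SE 0.32, adjusted p = 0.0090) and 1.08 (adjusted p = 0.018). At 25 generations the call of ATG32 was lost without Ctrl 5 replicate 3, any Ctrl 25 array or any SMG 25 array (adjusted p of up to 0.10), and that of ATG33 without any of the SMG 25 arrays (adjusted p of up to 0.057). ATG26, a sterol glucosyltransferase known for peroxisome breakdown in the yeast Pichia pastoris, rose by 0.76 (SE 0.23) and 0.78, and its call was lost at 5 generations without SMG 5 replicate 1 or 3 and at 25 generations without SMG 25 replicate 1 or 2 (adjusted p of up to 0.10 and 0.062 over the settings tried).

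The 2 genes that act inside the vacuole changed by less than 2-fold with all 6 control arrays. ATG22 (YCL038C), which exports amino acids from the vacuole, had ratios of 1.52, 1.11 and 1.28 in SMG 5 and 1.16, 1.05 and 0.991 in SMG 25, against a lowest of 0.540, a median of 0.628 and a highest of 1.02 in Ctrl. The SMG 5 arrays were above all controls and SMG 25 replicate 3 was not, and ATG22 rose by 0.91 (SE 0.21, adjusted p = 0.0038) and 0.62 (adjusted p = 0.030). The call at 25 generations was lost without Ctrl 5 replicate 3, any Ctrl 25 array or any SMG 25 array (adjusted p of up to 0.11). Without replicates 1 and 2 of Ctrl 5, ATG22 rose by 1.15 (SE 0.12), which is more than 2-fold, and by 0.87. ATG15 (YCR068W), the lipase that opens the delivered vesicles, had ratios of 1.32, 1.18 and 1.12 in SMG 5 and 1.05, 1.20 and 0.960 in SMG 25, against a lowest of 0.180, a median of 0.752 and a highest of 1.30 in Ctrl. Both the highest and the lowest control ratio were of Ctrl 5, in replicates 1 and 2. ATG15 changed by 0.98 (SE 0.46, adjusted p = 0.11) and 0.80 (adjusted p = 0.19), and by 0.81 (SE 0.16, adjusted p = 0.0011) and 0.63 (adjusted p = 0.0056) without those arrays.

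**Figure D3:**
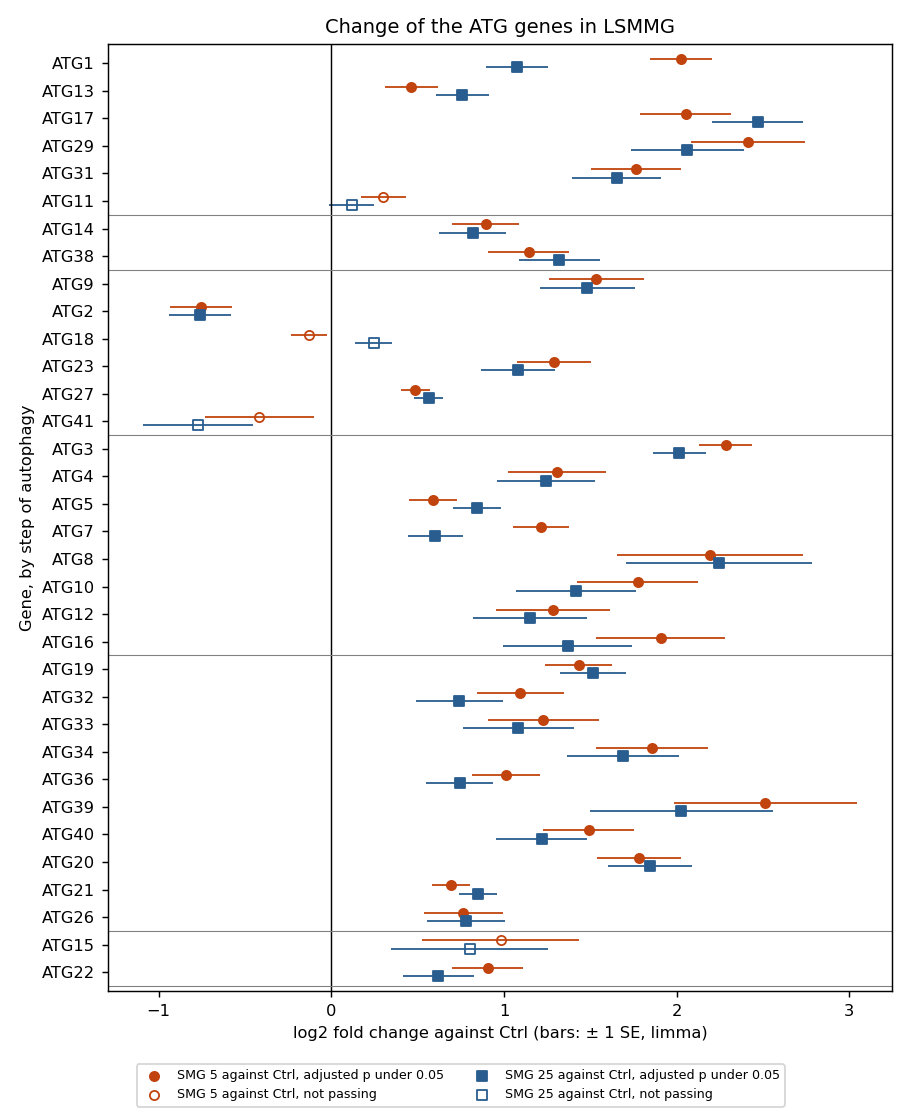
Log2 fold change of each ATG gene in SMG 5 (circles) and SMG 25 (squares) against Ctrl with its standard error (bars), filled where the adjusted p was under 0.05. All genes of the lipidation step and of the selective receptors and factors lie right of 0 and passed, and ATG2 is the only filled symbol left of 0.

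Between the LSMMG times, ATG1 was the only ATG gene whose difference passed the test. SMG 25 against SMG 5 gave 0 of 34 genes higher and 1 lower, where 1.87% of the named probe sets were higher and 0.818% lower, and 3 ATG genes and 16.9% of the named probe sets had an unadjusted p under 0.05. Its difference was -0.95 (SE 0.21, adjusted p = 0.046), and it passed in 12 of the 22 other settings tried, with adjusted p-values from 0.00029 to 0.23. The call was lost without any of the 6 LSMMG arrays, without Ctrl 25 replicate 1 or 3, with the replicate block and by the methods' test. The next were ATG7 at -0.61 (adjusted p = 0.15) and ATG18 at 0.37 (adjusted p = 0.19). The rise against Ctrl was larger at 5 generations in 23 of 34 genes, and the median of SMG 25 against SMG 5 was -0.14, beside -0.02 over the named probe sets.

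Ctrl 25 against Ctrl 5 gave 0 of 34 genes called by limma, where 0.200% of the named probe sets were called, and 0 by the methods' test on the same values. An unadjusted p under 0.05 was found in 8 ATG genes and in 32.8% of the named probe sets. ATG39 was lower in Ctrl 25 by the largest margin, at -1.75 (adjusted p = 0.059), followed by ATG10 at -1.07 (adjusted p = 0.076). Leaving out replicate 3 of Ctrl 5, which left replicates 1 and 2 as the Ctrl 5 arrays, made 22 ATG genes lower and 2 higher, with 31.8% and 14.1% of the named probe sets, so this comparison changed with a single array. An interaction of LSMMG with generation gave 0 genes called by limma, where 0.255% of the named probe sets were called, and 5 with an unadjusted p under 0.05, beside 19.3% of the named probe sets. Without replicate 3 of Ctrl 5 it gave 14 higher and 2 lower, with 20.1% and 7.29% of the named probe sets. For ATG1 the interaction was -1.02 (adjusted p = 0.17) and for ATG39 1.26 (adjusted p = 0.26).

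Set only against control arrays of the same generation, 26 ATG genes were higher and 1 lower in SMG 5 (26.4% and 24.3% of the named probe sets), with a median change of 1.04. ATG13 (0.31, adjusted p = 0.17), ATG33 (0.96, adjusted p = 0.054) and ATG26 (0.53, adjusted p = 0.10) no longer passed there. In SMG 25 against Ctrl 25, 29 genes were higher and 2 lower (39.9% and 25.8% of the named probe sets), with a median of 1.33, and ATG41 was lower at -1.06 (adjusted p = 0.022). The median rise was thus larger at 25 generations with controls of the same generation, and larger at 5 generations with all 6 control arrays.

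Without replicates 1 and 2 of Ctrl 5, 31 of 34 ATG genes were higher in LSMMG at each time and 2 were lower. Of the named probe sets, 45.0% were higher at 5 generations and 45.2% at 25 generations. The share that was lower was not counted in this setting, so the 2 lower genes cannot be set against it. The median changes became 1.56 and 1.40. The genes gained were ATG11 and ATG15, and ATG41 joined ATG2 among the lower ones, so that ATG18 alone passed at neither time (adjusted p = 0.55 and 0.054). The spread of the controls was wide for most ATG genes. The median SD of the log2 ratios was 0.0661 in SMG 5, 0.112 in SMG 25 and 0.499 in Ctrl for the ATG genes, and 0.0806, 0.0909 and 0.257 for the named probe sets. In 31 of 34 ATG genes (91.2%) the control SD was above both LSMMG SDs, as in 83.6% of the named probe sets. The control SD was taken over all 6 control arrays of both generations, and each LSMMG SD over 3 arrays of 1 generation. The SDs are therefore not on equal terms.

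**Figure D4:**
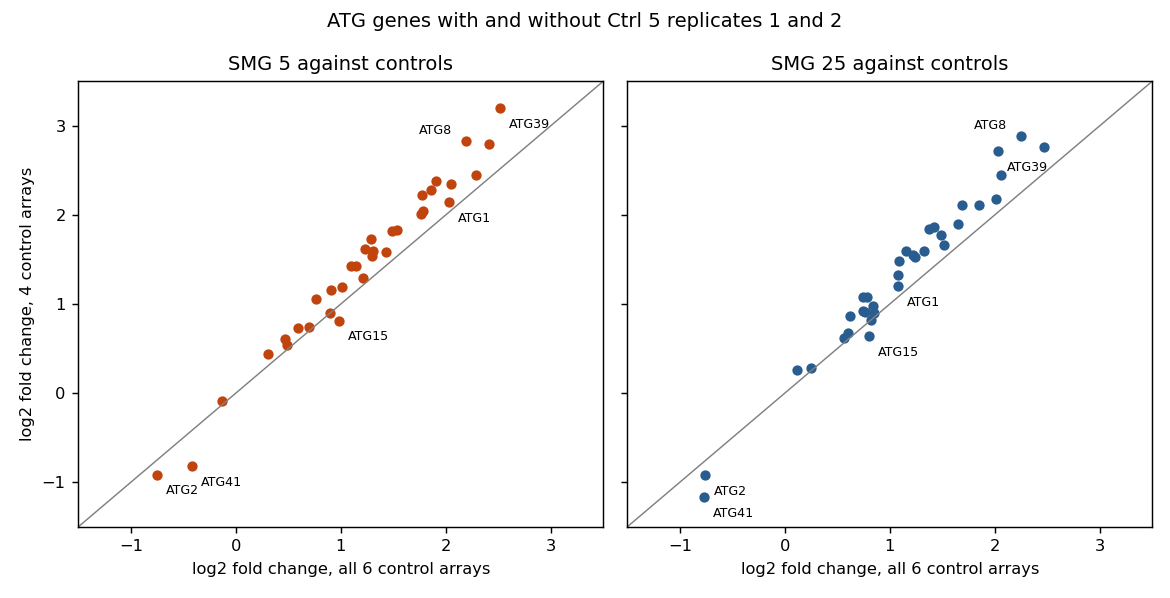
Log2 fold change of each ATG gene against all 6 control arrays (x axis) and against the 4 control arrays without Ctrl 5 replicates 1 and 2 (y axis), for SMG 5 (left) and SMG 25 (right), with the line of equal change. Most points with a rise lie above the line, ATG39 and ATG8 are among the farthest from it, and ATG15 is below it.

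Genes of autophagy under other names moved in both directions. Of 62 measured genes in 7 lists, 24 were higher, 10 lower and 28 not passing in SMG 5 against Ctrl, and 22 were higher, 11 lower and 29 not passing in SMG 25 against Ctrl. The named probe sets as a whole had 34.2% and 33.0% higher, and 26.8% and 25.4% lower, in the same order, and the median changes of the 62 genes were 0.13 and 0.11. A change of at least 2-fold was called in 8 genes upwards and 4 downwards at 5 generations, and in 7 upwards and 0 downwards at 25 generations. Over the named probe sets these shares were 13.6% and 8.62% at 5 generations and 12.2% and 8.15% at 25 generations.

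Of the core of the phosphatidylinositol 3-kinase, 2 of 3 genes were higher at each time: VPS30, the former ATG6, by 0.82 and 0.79 (SE 0.15 each), and VPS34, the kinase itself, by 0.59 and 0.62 (SE 0.12 each). Among 4 genes of Cvt cargo and the vacuolar protein Vac8, 2 were higher at each time and 1 was lower at 5 generations. The aminopeptidase APE1, the main cargo of Atg19, rose by 0.85 (SE 0.29, adjusted p = 0.037) and 1.41 (adjusted p = 0.0024), and the mannosidase AMS1, also a cargo, by 1.45 (SE 0.46, adjusted p = 0.024) and 1.28 (adjusted p = 0.045). Against controls of the same generation neither passed at 5 generations (0.89, adjusted p = 0.075 for APE1, and 1.19, adjusted p = 0.11 for AMS1). APE4, a further cargo, changed by -0.31 (adjusted p = 0.052) and -0.09 (adjusted p = 0.61). VAC8, named here as the lower gene, changed by -0.73 (SE 0.26, adjusted p = 0.040) and -0.67 (adjusted p = 0.058). Against Ctrl 5 alone VAC8 in SMG 5 did not pass (-0.42, adjusted p = 0.23). Of 8 partners of selective autophagy, 4 were higher and 1 lower at 5 generations, and 4 were higher and 2 lower at 25 generations. FIS1, an adaptor of mitochondrial division, rose by 1.12 and 1.08 (SE 0.10 each), and NVJ1, which joins nucleus and vacuole, by 0.90 and 0.96 (SE 0.12 each). SNX4, the former ATG24 and partner of Atg20, rose by 1.34 and 1.66 (SE 0.22 each), and is named here for its former symbol.

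In the tethering complex TRAPPIII with the GTPase Ypt1, 4 of 8 genes were higher and 2 lower at 5 generations, and 4 were higher and 1 lower at 25 generations. TRS23 rose by 0.62 and 0.58 (SE 0.08 each) and BET3 by 0.35 and 0.34 (SE 0.09 each), both subunits of the complex. Of 13 genes of vacuole fusion, 2 were higher and 1 lower at 5 generations, and 4 were higher and 1 lower at 25 generations. VTI1, a SNARE protein of membrane fusion, rose by 1.26 and 1.24 (SE 0.17 each), while PEP5, a subunit of the tethering complexes of the vacuole, changed by -0.42 and -0.55 (SE 0.08 each).

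Among 13 transcriptional regulators of ATG genes, 7 were higher and 2 lower at 5 generations, and 3 were higher and 3 lower at 25 generations. UME6, which encodes a DNA-binding repressor known to act on ATG8, had ratios of 0.430 to 0.595 in SMG 5 and 0.819 to 0.927 in SMG 25, against 1.09 to 1.78 in Ctrl. UME6 was lowest in SMG 5 and did not overlap with Ctrl at either time, at -1.48 (SE 0.15, adjusted p = 1.8e-05) and -0.69 (adjusted p = 0.0037). RPD3, the histone deacetylase that Ume6 recruits, rose by 0.34 and 0.49 (SE 0.07 each). Of 13 upstream kinases and their regulators, 3 were higher and 3 lower at 5 generations, and 3 were higher and 4 lower at 25 generations. TPK2, a catalytic subunit of protein kinase A, rose by 1.13 and 1.01 (SE 0.13 each), and LST8, a subunit of the TOR complexes, by 0.99 and 0.52 (SE 0.10 each). Related members of the list went the other way and are named after their values were seen: TPK3, also a catalytic subunit of protein kinase A, was lower at -1.29 and -0.94 (SE 0.16 each), and of the TOR genes TOR2 at -1.05 and -0.74 and TOR1 at -0.36 and -0.42, with KOG1 at -0.19 (adjusted p = 0.27) and -0.69 (adjusted p = 0.00098).

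**Figure D5:**
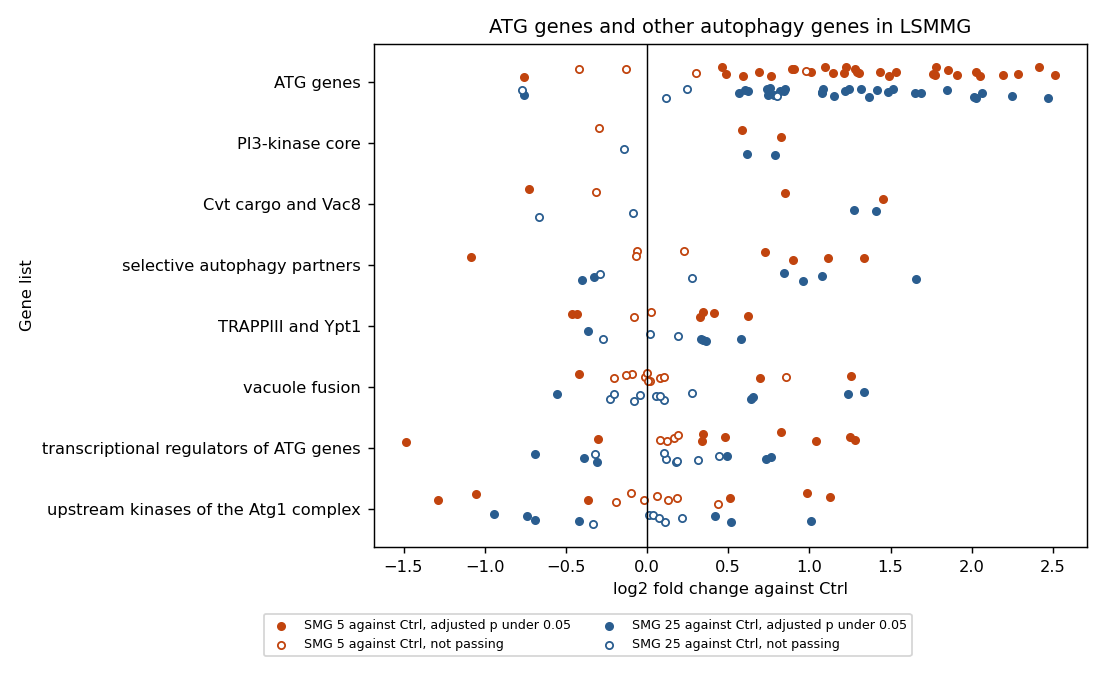
Log2 fold change against Ctrl of each ATG gene (top row) and of each measured gene of 7 other autophagy lists, in SMG 5 and SMG 25, filled where the adjusted p was under 0.05. The ATG genes lie mostly between 0.46 and 2.51, while the other lists lie on both sides of 0.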

How the data were processed

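The authors hybridized labelled RNA to Affymetrix Yeast Genome 2.0 arrays, computed expression values by RMA and analysed them in GeneSpring. The authors deposited linear ratios, scaled to a median of 1 for each array and to a typical level of about 1 for each probe set, with settings that are not given in the sources used here. The authors' minimum of raw intensity could not be applied to them.

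The log2 of each ratio was used, and nothing was added to it. Of 10928 probe sets, 1746 annotated to S. pombe, 213 array controls and 1 with several genes were left out, and 8968 were tested: 5498 assigned to 1 gene of S. cerevisiae and 3470 that the annotation does not name. Models with the groups SMG 5, SMG 25 and Ctrl, or with Ctrl divided by generation, were fitted with limma 3.58.1 in R 4.3.3. Each comparison had its own Benjamini-Hochberg adjustment. For genes with several probe sets, 47 in all, the probe set with the highest mean ratio was to be used, but each ATG gene had 1. The number of arrays limits the precision.

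The ATG genes, the steps and the other lists were chosen with earlier results of these data known. Values on each array were given for up to 3 genes of each step with the largest moderated statistics and for genes that fell, did not pass or differed between times, and up to 2 genes of each other list were named in the same way. On simulated data for SMG 5 against Ctrl with 8968 probe sets and 50 changed ones of each size, 32 of those changed 1.5-fold, 44 of the 2-fold, 47 of the 4-fold and 50 of the 8-fold set were recovered, and 15 calls were false. The simulated noise was independent between probe sets, and few probe sets were changed, whereas 40.8% of those tested were called in the data. These counts check the code and do not carry over to the data. Alternatives covered the test, the prior, array weights, scaling, filters, fold minimums, the controls used, a replicate block and leaving out each array. Plots were made in Python 3.11.15 (matplotlib 3.10.9). No promoter or protein sequence was used here.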

Additional observations from a re-analysis of the deposited data

Results flagged for a closer look

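ATG1 differed between the LSMMG times. SMG 25 against SMG 5 was -0.95 on the log2 scale (SE 0.21, adjusted p = 0.046 by limma), with ratios of 1.35, 1.51 and 1.20 in SMG 25 and 2.32, 2.92 and 2.60 in SMG 5, lower on 3 of 3 arrays. Over 22 other settings the change stayed between -1.03 and -0.87, and it passed in 12 of them, and in none that left out an LSMMG array. The interaction with the controls of each generation was -1.02 and did not pass (adjusted p = 0.17).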

How the results depend on the processing

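No ATG gene reversed a call in LSMMG against Ctrl. Over 34 genes and 23 other settings, fold minimums aside, each gene was called or not called in 782 cases at each time. At 5 generations this status was unchanged in 757 cases, with 14 calls lost and 11 gained. At 25 generations it was unchanged in 750, with 23 calls lost and 9 gained. Genes that were not called and stayed so count as unchanged. The count of lower genes was 2 at each time with array weights (a fit that stopped before convergence), with quantile normalization and with 4 control arrays, 2 at 25 generations with controls of the same generation, and 0 at each time with a 2-fold minimum, which left 19 higher at 25 generations. The named probe sets called lower were not counted with array weights, quantile normalization or 4 control arrays. Leaving out each array gave 27 to 31 higher and 1 to 1 lower at 5 generations, and 22 to 29 higher and 1 to 2 lower at 25 generations. The 22 came without SMG 25 replicate 2, when ATG7, ATG12, ATG16, ATG32, ATG33, ATG26 and ATG22 were lost. The named probe sets were not counted with single arrays left out here, so a loss particular to the ATG genes and a general one cannot be told apart. Quantile normalization moved the median of the named probe sets to 0.03 and 0.05 and left 17 and 15 ATG genes at least 2-fold higher. In SMG 25 against SMG 5, array weights gave 2 higher and 4 lower, and quantile normalization 3 higher and 2 lower. The named probe sets were not counted in either setting, so these counts cannot be set against them. The methods' test, the replicate block and a 2-fold minimum gave 0 lower, and leaving out each array 0 to 0 higher and 0 to 1 lower. In Ctrl 25 against Ctrl 5, array weights gave 2 higher and 22 lower, quantile normalization 1 lower, and leaving out each array 0 to 2 higher and 0 to 22 lower. The share of the named probe sets was not counted with array weights. Without Ctrl 5 replicate 3, 14.1% of them were higher and 31.8% lower. In the interaction, array weights gave 19 higher and 3 lower, quantile normalization 2 lower, and leaving out each array 0 to 14 higher and 0 to 2 lower. With 4 control arrays Ctrl 5 was a single array, so no count is given. The named probe sets were not counted with array weights or quantile normalization. Without Ctrl 5 replicate 3, 20.1% of them were higher and 7.29% lower in the interaction, so these counts are not a result about the ATG genes alone. The causes were not tested. For the 62 other autophagy genes at 5 generations, controls of the same generation gave 5 lower, a 1.5-fold minimum 5 lower, a 2-fold minimum 8 higher and 4 lower, and leaving out each array 20 to 26 higher and 7 to 11 lower. At 25 generations quantile normalization gave 17 lower, a 1.5-fold minimum 4 lower, a 2-fold minimum 7 higher and 0 lower, and leaving out each array 18 to 25 higher and 7 to 14 lower.

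The replicate numbers did not pair the arrays over all groups: 6 of 18 pairs of the same number correlated above 0.1 after group means were removed, and 4 of 12 arrays correlated best with their own number. The 3 pairs of control arrays at 5 and 25 generations correlated at 0.182, 0.361 and 0.576, and with the block Ctrl 25 against Ctrl 5 still gave 0 ATG genes called. With the replicate block 29 ATG genes were higher at 5 generations and 28 at 25 generations, where ATG32 was lost. The choice of the probe set with the lowest mean ratio was not run, since each gene had 1 probe set, and the length of a promoter window was not run, since no sequence was used. Ratios without the signal behind them do not show which probe sets were dim.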
